A study of Mus musculus with 15 samples.

Results

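The effect of a cardiac renalase virus that hearts with and without the endogenous gene had in common was measured in 12 of the 15 heart RNA-seq libraries of the study, all from mice with chronic kidney disease (CKD). These were the 6 libraries of mice given AAV9-cTnT-Rnls and the 6 of mice given the empty vector, taken by their labels, and a single treatment effect was fitted across both genotypes with genotype as a block. Of the 17447 genes in the count table, the 12896 with 10 or more counts in 3 or more of the 12 libraries were tested. The virus carries the renalase gene (Rnls) behind the cardiac troponin T promoter, which is active in cardiomyocytes.

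All 12 mice were young adult males on the C57BL/6J strain, had CKD from a 5/6 nephrectomy in 2 operations, were injected in the tail vein in week 2 after surgery and were killed 18 weeks after it. WTCKD (n = 3) were wild-type mice with the vector, and WTCKD+RNLS (n = 3) wild-type mice with the virus. KOCKD (n = 3) were Rnls-/- mice with the vector, and KOCKD+RNLS (n = 3) Rnls-/- mice with the virus. The 3 sham-operated wild-type mice (WTSHAM) did not enter the fit. The knockout was made in C57BL/6J by TALEN targeting, while the wild-type mice came from a separate source, and the 2 genotypes were not described as littermates. No group received the virus without CKD, so the effect was measured in diseased hearts only.

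Renalase is a flavoprotein of kidney, heart and other tissues that is released into blood. It was first described as an enzyme that lowers catecholamines, a view since disputed, and the plasma membrane calcium pump Atp2b4 was reported as its receptor. In the CKD heart, cardiomyocytes enlarge and fibroblasts lay down collagen between them, so muscle genes and matrix genes are the usual readouts. Heart muscle also runs a circadian clock, in which Arntl (BMAL1) and Clock drive the period and cryptochrome genes that repress them, and this clock sets the hour of many fuel and channel genes.

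Several libraries stood apart before any test. Between 10480788 and 13424078 reads were counted per library. Rnls was not analysed here, so neither the knockout nor the delivery could be checked on the target gene. Wdfy1, named after its values were seen, lay between 5.15 and 8.11 CPM (reads of a gene scaled to a common library total) in the 9 wild-type libraries and between 17.9 and 19.0 in KOCKD, while KOCKD+RNLS held 7.38, 23.9 and 28.3. Gm2423, chosen the same way, had 54 to 143 counts in KOCKD but 7 to 11 in KOCKD+RNLS, within the 0 to 14 of the wild-type libraries. All KOCKD+RNLS libraries at Gm2423, and replicate 1 at Wdfy1, thus lay with the wild-type libraries and not with KOCKD. Neither gene is the knockout target. Whether these labels are right cannot be settled by 2 genes picked this way and was not tested. The count of called genes is given below without the genotype block. Effects within Rnls-/- and differences between genotypes rest on these labels, which dropping the block does not address. The summed CPM of the atrial muscle genes Sln, Myl4 and Myl7 was 885, 1130 and 3.97 in WTCKD, 126, 13.4 and 1690 in KOCKD, 16.6, 3.92 and 240 in WTCKD+RNLS, and 1.70 to 2.81 in KOCKD+RNLS. Of 8 atrial markers tested 4 were lower with the virus (median log2 fold change -1.70). This count was 1 in 6 of the 12 fits that leave out 1 library (WTCKD replicates 1 and 2, WTCKD+RNLS replicate 1 and each KOCKD+RNLS replicate), and DESeq2 called 2 lower and 1 higher. The summed CPM of the 8 was 1530, 2740 and 219 in WTCKD and 563, 239 and 2870 in KOCKD, against 268 to 675 with the virus, so 3 vector libraries stood above the rest. WTCKD+RNLS replicate 2 and KOCKD replicate 2 held the highest summed CPM of respiratory chain genes, 68200 and 64000 against 50000 to 59200 in the other 10.

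Many genes differed by small amounts between the virus and the vector libraries. With genotype as a block, 2091 of 12896 genes (16.2%) passed an adjusted p of 0.05 (edgeR, quasi-likelihood F test, Benjamini-Hochberg over all genes tested), here termed called. Of these 1280 (9.93% of genes tested) were higher with the virus and 811 (6.29%) lower. The median absolute change of called genes was 0.425 on the log2 scale, 62.1% changed by less than 0.5, and only 54 rose and 145 fell by more than 1. Another rule asked for a change over 0.32 on the log2 scale and an unadjusted p under 0.05. By it 2194 genes (17.0%) passed, 1151 higher and 1043 lower. The CPM of the 6 virus libraries and the 6 vector libraries did not overlap at all for 715 genes (5.54%), 444 above and 271 below, and 677 of the 715 were called. On the first principal component, which took 28.6% of the variance, the 6 virus libraries lay between 11.2 and 26.1 and the 6 vector libraries between -33.0 and -4.62.

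**Figure D1:**
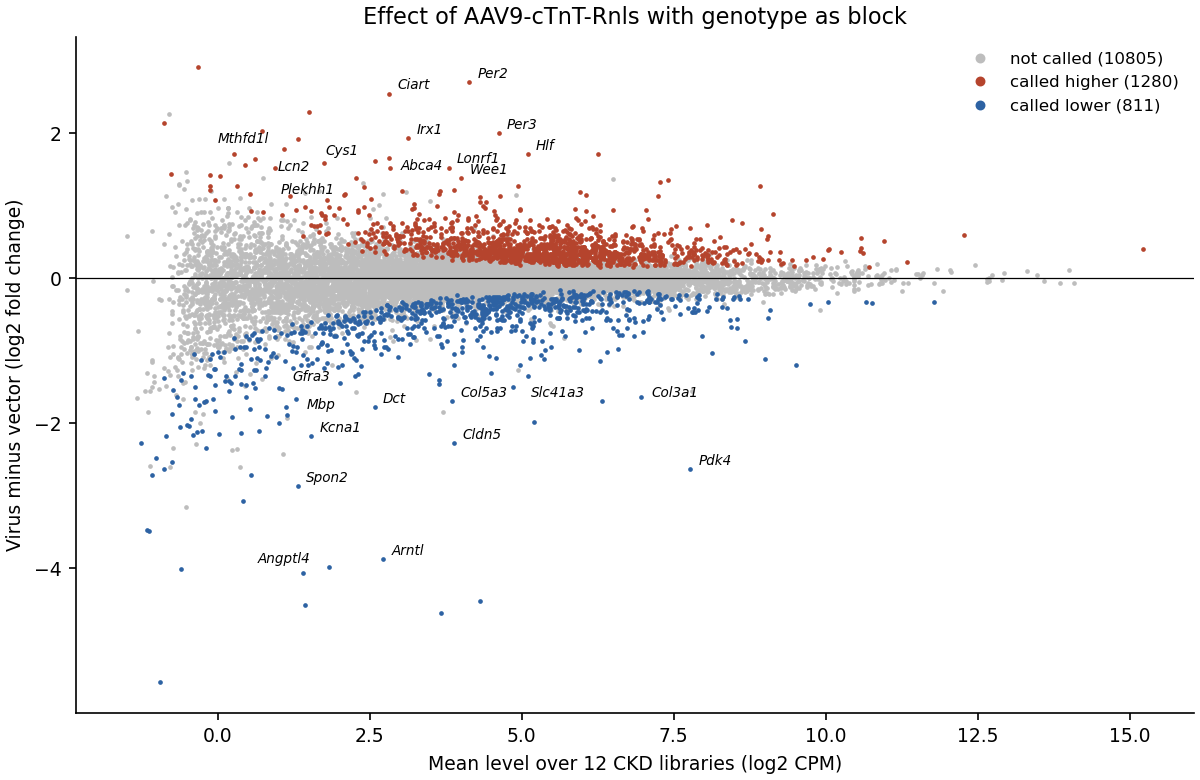
Each point is 1 of the 12896 genes, with its mean level over the 12 CKD libraries on the x axis (log2 CPM) and the virus effect with genotype as a block on the y axis (log2 fold change, virus minus vector). The 1280 genes called higher are red and the 811 called lower blue. Above a mean log2 CPM of 1, the 12 largest rises and 12 largest falls without overlap between the 6 virus and 6 vector libraries are named, and among these the falls reach further (Angptl4 and Arntl near -4) than the rises (Per2 at 2.71).

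How firmly these counts stand depended on the libraries. Leaving out WTCKD+RNLS replicate 2 raised the number of called genes to 3447, while leaving out WTCKD+RNLS replicate 3 lowered it to 1359 and leaving out KOCKD replicate 1 to 1410. Without the 4 libraries richest in atrial genes (WTCKD replicates 1 and 2, WTCKD+RNLS replicate 3 and KOCKD replicate 3) only 463 genes were called, 441 of them also called over all 12, and that fit holds 1 WTCKD library, whose spread is taken from the other groups. The balance of directions moved with gene length. Over 5 equal bins of genes by length the median effect ran from -0.11 in the shortest to 0.17 in the longest, and from -0.24 to 0.29 within the knockout. Once each library's trend with length was removed, 1729 genes were called, 50.4% of them higher against 61.2% before. The part of length and of atrial tissue in any single small effect was not tested.

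The genotypes, taken by label despite the values at Wdfy1 and Gm2423, were then read apart from 1 model with an interaction. Within wild type 769 genes (5.96%) were called, 363 higher and 406 lower, and within Rnls-/- 2225 (17.3%), 1372 higher and 853 lower. Of the 2091 genes called over both, 339 were called in each genotype separately, 268 in wild type but not Rnls-/-, 921 in Rnls-/- but not wild type, and 563 in neither. A further 162 genes were called in wild type and 965 in Rnls-/- without a call over both. The test of the difference between genotypes called 0 genes (0%) in edgeR, with a lowest adjusted p of 0.0863. Even so, 2421 genes (18.8%) had an unadjusted p under 0.05 for this difference. DESeq2 called 476 but gave no adjusted p to 6001 genes. Among genes called over both, the share with an unadjusted p under 0.05 for the difference was much the same, at 19.5%. The 95% interval of the difference had a median half-width of 0.413 on the log2 scale before adjustment, so the absence of calls does not show that the genotypes responded alike.

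**Figure D2:**
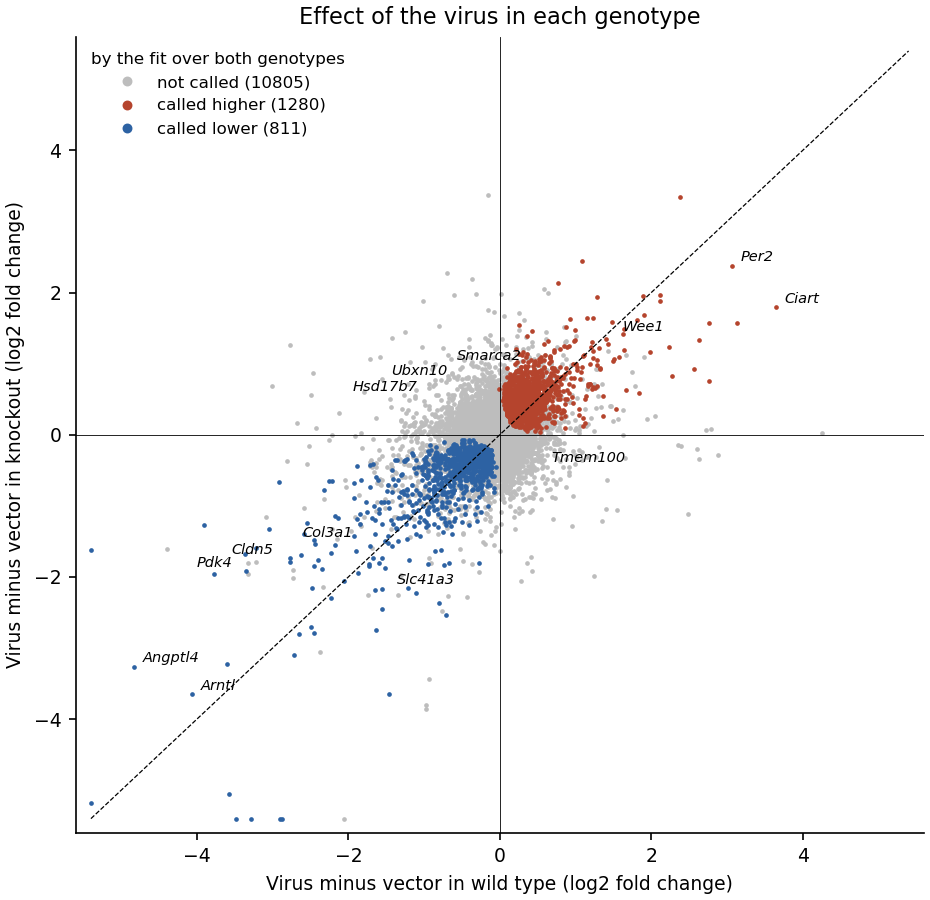
Each point is 1 gene, with the virus effect in wild type on the x axis and in Rnls-/- on the y axis (log2 fold change, values past 5.4 drawn at the edge), and colours mark the calls of the fit over both genotypes (1280 higher, 811 lower). The dashed line marks equal effects. Genes were coloured by a fit that averages both axes, which favours the 2 quadrants of equal sign, and Ubxn10, Hsd17b7 and Tmem100, which are not called over both, lie in the others.

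Among genes with a mean log2 CPM over 1 whose libraries did not overlap, Angptl4, a secreted inhibitor of lipoprotein lipase, fell most. It was at 4.26, 13.8 and 34.9 CPM (lowest, median and highest) with the vector and at 0.303, 0.949 and 1.54 with the virus. Every virus library lay below every vector library, and the gene fell 15.8-fold (log2 fold change -3.98 ± 0.49 SE, adjusted p = 0.000143). Spon2, a secreted matrix protein, went from 2.87 to 10.3 CPM with the vector to 0.330 to 1.68 with the virus, a 7.31-fold fall. Cldn5, the tight-junction claudin of endothelium, fell 4.82-fold, from 17.1, 31.3 and 51.1 CPM to 4.85, 6.60 and 9.74. Kcna1, a delayed-rectifier potassium channel, fell 4.54-fold, and Slc41a3, a magnesium transporter, 3.23-fold with the narrowest error of the 12 (-1.69 ± 0.09). Slc41a3 ran from 117 to 183 CPM with the vector and from 32.9 to 61 with the virus. Dct (dopachrome tautomerase), Gfra3 (a receptor of GDNF-family ligands), Mbp (a myelin protein), Col5a3, Col3a1, Pdk4 and Arntl completed the 12 largest falls among 236 genes that were called lower without overlap, over a mean log2 CPM of 1 and of 1 sign in both genotypes. Of these 12 falls all but Mbp had an adjusted p under 0.02 without the 4 libraries richest in atrial genes, where Mbp was at -1.20 (adjusted p = 0.0479).

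Among 411 genes that rose by the same criteria, Per2, Ciart, Per3 and Hlf of the clock took 4 of the 12 highest places. Irx1, a homeobox factor of the ventricle, was at 0.169, 6.22 and 13.5 CPM with the vector and at 18.7, 24.7 and 29.1 with the virus (1.94 ± 0.49, adjusted p = 0.0150). The vector libraries spread widely at this gene, and without the 4 libraries richest in atrial genes its adjusted p was 0.0607. Mthfd1l, a mitochondrial enzyme of one-carbon metabolism, rose 3.43-fold from a median of 0.966 to 3.72 CPM. Lonrf1, which encodes a ring-finger protein, rose 2.90-fold with a tight spread, from 6.33 to 11.3 CPM up to 21.0 to 25.8. Wee1, the kinase that holds cells before mitosis and a known clock output, rose 2.60-fold from 7.14, 10.2 and 11.5 CPM to 23.5, 25.1 and 29.5. Cys1 (a cilium protein), Lcn2 (lipocalin 2), Abca4 and Plekhh1 rose between 2.62-fold and 3.06-fold. Abca4 was at 2.27 in wild type and 0.83 in Rnls-/- on the log2 scale, the second value short of the test (adjusted p = 0.146), and the difference itself was not called (adjusted p = 0.197).

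Most repressor genes of the circadian clock rose, while Arntl, Npas2 and Clock fell. Of 12 genes of the repressor arm and its D-box factors, 10 rose, 1 fell and 1 was not called, with a median of 1.27 against 0 over all genes tested. Per2, a period repressor, was at 3.70, 6.44 and 13.1 CPM with the vector and 34.6, 45.3 and 62.1 with the virus. No library of either arm entered the range of the other, and the gene rose 6.56-fold (2.71 ± 0.23, adjusted p = 5.16e-06). Ciart, a circadian repressor, rose 5.87-fold from a median of 2.12 to 17.3 CPM. Per3 rose 3.99-fold from 6.80 to 24.2 CPM up to 36.9 to 58.5. The PAR-bZIP factors, which bind D-boxes in output genes, rose as well: Hlf 3.28-fold, Tef 2.56-fold and Dbp by 1.72 on the log2 scale (adjusted p = 0.00281). Tef had the smallest error of them, from 91.9, 95.4 and 150 CPM to 243, 272 and 296. Per1 (1.19), Cry2 (0.74), Nr1d2 (0.72) and Bhlhe41 (0.69) rose too, Nr1d1, which encodes REV-ERBα, fell by 0.79 (adjusted p = 0.0278), and Bhlhe40 was at 0.19 (adjusted p = 0.323).

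On the activator side Arntl, the partner of Clock, was at 9.88, 27.3 and 33.8 CPM with the vector and 1.32, 1.55 and 2.42 with the virus. It fell 14.7-fold (-3.87 ± 0.22, adjusted p = 1.07e-07), by 4.06 in wild type and 3.65 in Rnls-/- on the log2 scale. Npas2, which can stand in for Clock, fell by 1.45 and Clock itself by 0.51. Cry1 rose by 0.56 (adjusted p = 0.0109) and Rora by 0.32 (adjusted p = 0.0433), while Nfil3 (E4BP4) was at -0.37 and not called. So 3 of these 7 genes fell and 2 rose. Without the 4 libraries richest in atrial genes 10 of the 12 repressor-arm genes still rose and none was called lower by edgeR, and on the activator side the same count of 3 fell and none was called higher. The groups were not uniform. KOCKD replicate 3 stood nearest to the virus libraries among the vector libraries, with Per2 at 13.1, Per3 at 24.2 and Arntl at 9.88 CPM. WTSHAM replicate 1, which had no virus, held Per2 at 33.8, Arntl at 7.65, Wee1 at 19.3 and Lonrf1 at 21.7 CPM, against 5.19 and 4.65, 21.4 and 32.7, 8.06 and 9, and 8.06 and 6.71 in the other 2 sham libraries. The hour at which each heart was collected is not given in the sources used here. A difference in hour between the arms and an effect of the virus therefore cannot be told apart for these genes. The same holds for fuel and channel genes whose hour the clock sets.

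**Figure D3:**
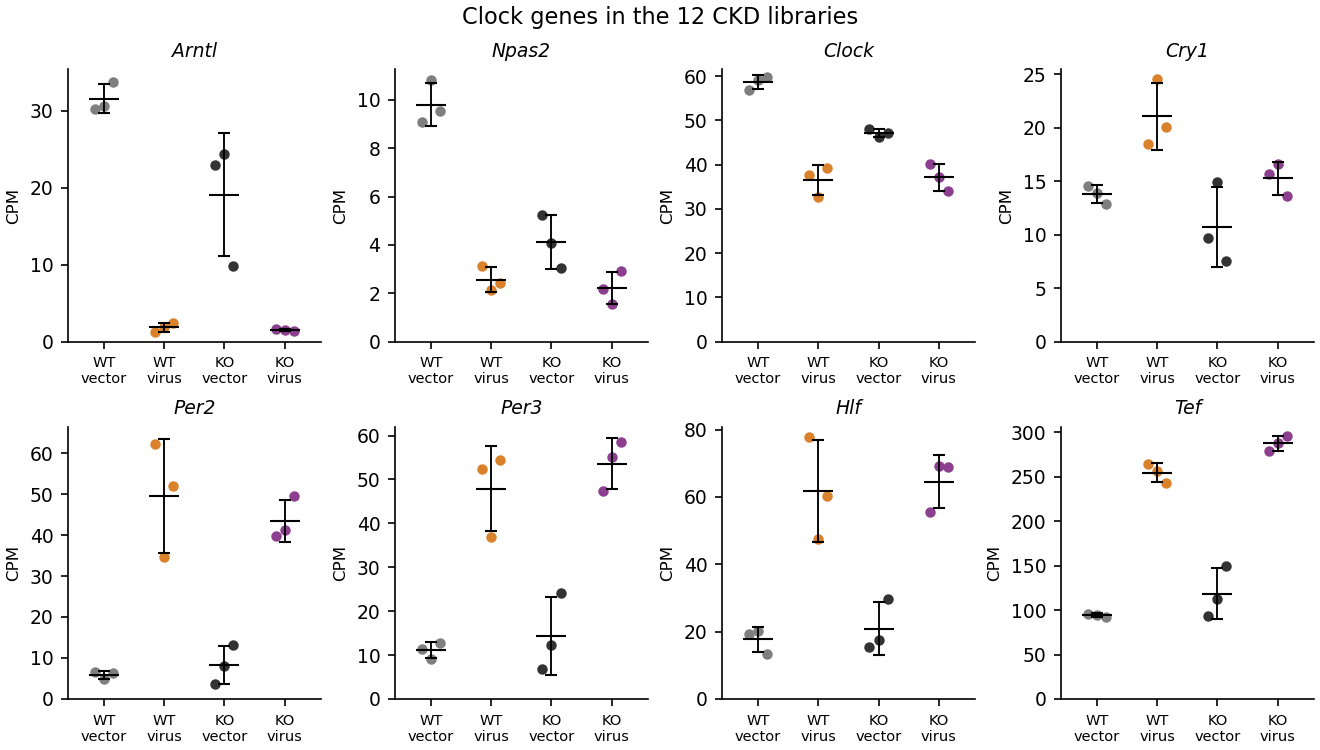
Level of 8 clock genes (CPM, each panel with its own axis from 0) in the 12 CKD libraries by genotype (WT, KO) and injection, with 1 point a library, the group mean as a bar and ±1 SD (n = 3). Arntl, Npas2 and Clock are lower and Cry1, Per2, Per3, Hlf and Tef higher with the virus in both genotypes, with Per2 at 3.70 to 13.1 CPM without and 34.6 to 62.1 with it.

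The promoters of these genes were read for the letters the clock factors bind, since the members moved together. From RefSeq on GRCm38.p6, 16 of the 19 clock genes of the 2 lists had a promoter, taken as 250 bases before to 50 after each start. The E-box CACGTG, the site of the Arntl and Clock pair, was found in 5 of the 16 (31.2%: Per1, Tef, Ciart, Bhlhe41 and Cry1) against 2187 of all 27025 genes in the table (8.09%). The D-box, searched as TTATGTAA or TTACATAA on its other strand and as TTACGTAA, was found in Per3 alone (6.25% of the 16) against 1.23% of all. Of the 12 largest falls 7 had a promoter, and 1 of these (14.3%), the magnesium transporter Slc41a3, held the E-box. Of the 12 largest rises 8 had a promoter, and 1 (12.5%), Ciart, held it, against the same 8.09% of all. The 120 bases around the match are shown for the 4 genes that rose and matched with the lowest p-values, 5′ to 3′ on the gene's strand, with the motif in capitals. A match describes the letters of this window only.
Tef, first start, E-box 127 bases before it, chr15:81802489-81802608, plus strand: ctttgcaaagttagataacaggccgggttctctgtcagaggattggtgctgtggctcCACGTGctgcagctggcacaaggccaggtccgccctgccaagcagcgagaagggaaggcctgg
Tef, second start, E-box 138 bases before it, chr15:81811219-81811338, plus strand: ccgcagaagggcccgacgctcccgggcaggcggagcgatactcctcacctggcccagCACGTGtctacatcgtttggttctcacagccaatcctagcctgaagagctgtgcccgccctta
Per3, D-boxes 205 and 158 bases before the start, chr4:151044796-151044915, minus strand: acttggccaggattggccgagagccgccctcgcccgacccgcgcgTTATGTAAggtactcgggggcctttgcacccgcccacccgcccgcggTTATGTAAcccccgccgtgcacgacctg
Ciart, E-box 116 bases before the start, chr3:95882282-95882401, minus strand: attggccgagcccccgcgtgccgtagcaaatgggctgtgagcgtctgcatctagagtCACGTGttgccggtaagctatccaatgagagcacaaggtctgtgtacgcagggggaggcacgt
Per1, E-box 166 bases before the start, chr11:69098726-69098845, plus strand: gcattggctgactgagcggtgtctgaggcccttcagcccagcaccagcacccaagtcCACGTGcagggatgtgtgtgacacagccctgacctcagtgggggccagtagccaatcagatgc
Tef thus carries the E-box before each of the 2 starts shown, and Per3 the same D-box letters at 2 places. Starts without a match, if any, are not shown.

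Targets of the lipid-sensing PPAR receptors fell while the oxidation enzymes themselves did not pass the test. For such fuel genes too, the hour of collection and the virus cannot be told apart. Of 17 PPAR targets and coactivators 9 fell and 2 rose (median -0.33). Pdk4, the kinase that shuts pyruvate out of the mitochondrion, was at 172, 511 and 1340 CPM with the vector and 75.8, 89.6 and 119 with the virus, and fell 6.21-fold (-2.63 ± 0.33, adjusted p = 0.000147). The vector libraries were uneven at this gene, with KOCKD replicate 2 the lowest, but none reached the virus range. The uncoupling protein gene Ucp3 fell by 1.98, the acyl-CoA thioesterases Acot1 and Acot2 by 1.21 and 0.54, though reads of this near-identical pair may be split between them. Mlycd, which removes malonyl-CoA, fell by 0.54, the fatty acid transporter Cd36 by 0.34, Fabp3 by 0.33 and the lipid droplet coat Plin2 by 0.31. The receptor gene Ppara itself rose by 0.48, from 81.4 to 105 CPM up to 111 to 161, and the coactivator Ppargc1b by 0.59. Without the 4 libraries richest in atrial genes 10 fell and 1 rose. Of 20 genes of mitochondrial fatty acid oxidation 0 were called in either direction by edgeR or DESeq2, and 0 had an unadjusted p under 0.05, with values from -0.09 (Etfa) to 0.12 (Decr1). With gene length offsets 3 of them were higher. Glucose genes moved little, with calls at about the 16.2% share over all genes tested. The transporter Slc2a4 rose by 0.26, hexokinase 2 (Hk2) by 0.26, Slc2a1 by 0.23 and Pdha1 by 0.16. The other 20 of 24 were not called. None of the 4 was called without the 4 libraries richest in atrial genes.

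Collagens and their crosslinking enzymes were lower with the virus. Of 31 collagen chains tested 13 fell and 2 rose, with a median of -0.42 (-0.68 in wild type and -0.17 in Rnls-/-). Among the fibril-forming chains 6 of 8 fell. Col3a1, the chain of type III collagen, was at 167, 237 and 302 CPM with the vector and 56.1, 72.3 and 91.4 with the virus. It fell 3.12-fold without overlap (-1.64 ± 0.12, adjusted p = 2.72e-06), by 1.72 in wild type and 1.56 in Rnls-/-. Col5a3 fell 3.24-fold, from 22.1 to 34.7 CPM down to 5.51 to 12.3, and Col1a1, a chain of type I collagen, 2.02-fold, from 88.1, 122 and 165 CPM to 46.1, 58.8 and 87.0. Its partner chain Col1a2 fell by 0.42 with overlapping libraries (74.9 to 106 against 100 to 167 CPM), and Col5a2 and Col5a1 by 0.58 and 0.35. Col27a1 went the other way, at 0.82 (adjusted p = 0.0151), and Col11a2 was not called. The 3 microfibril chains Col6a1, Col6a2 and Col6a3 fell by 0.58, 0.69 and 0.61.

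Basement membrane genes split. Of 22 tested 5 fell and 4 rose, with a median of 0.00. The type IV chains Col4a1 and Col4a2, the main ones of vessel and muscle sheaths, fell 1.81-fold and 1.62-fold. Col4a1 was at 457, 557 and 680 CPM with the vector and 266, 299 and 367 with the virus. Col15a1 and Col18a1, multiplexins with endostatin-like ends, fell by 0.78 and 0.86. The laminin genes Lamb3 (0.45), Lama2 (0.32) and Lamb2 (0.29) and the type IV chain Col4a5 (0.36) rose. Without WTCKD+RNLS replicate 3 the number of basement membrane genes called higher dropped to 1, and without the 4 libraries richest in atrial genes to 0.

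Of 19 genes that modify and crosslink collagen 7 fell and none was called higher by edgeR. The lysyl oxidase gene Loxl1 fell 1.85-fold, from 39.8, 47.6 and 69.6 CPM to 21.9, 27.5 and 32.2, with Loxl2 at -0.80 and Lox at -0.79. The prolyl hydroxylase genes P3h2 and P4ha1 fell by 0.91 and 0.44, the collagen chaperone Serpinh1 by 0.46 and the procollagen protease Adamts2 by 0.43. Of 20 matricellular and activated fibroblast genes 7 fell: Meox1, a homeobox factor of activated fibroblasts, by 1.40, Tnc by 1.18, Postn (periostin) by 1.06, Ltbp2 by 1.04, Ccn1 by 0.72, Sparc by 0.67 and Fstl1 by 0.45. Postn was at 38.4, 53.0 and 102 CPM with the vector and 23.4, 28.4 and 34.6 with the virus. Acta2, the smooth muscle actin of myofibroblasts, was at -0.18 (adjusted p = 0.579), Fn1 at -0.03 and Ccn2 at -0.12, none called. Of 20 proteases and inhibitors 7 fell and 1 rose. Mmp14, the membrane-bound collagenase, fell 2.10-fold, and Mmp3, Mmp9, Timp1, Adamts9 and Adamts12 also fell. Adamts4 completed the falls, from 1.04 to 2.94 CPM with the vector to 0 to 0.247. It met the count filter through the vector libraries only, and its values with the virus were at the floor. The metalloproteinase inhibitor Timp3 rose 1.76-fold, from 223, 255 and 343 CPM to 410, 460 and 525.

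Calls in the TGF-β pathway came at about the share over all genes tested (16.2%). The ligand Tgfb1 fell by 0.42 and its mediator Smad3 by 0.42, while the co-receptor Tgfbr3 and the latency protein Ltbp1 rose by 0.54 and 0.39. The other 19 of 23 genes of this pathway were not called, and none of the 4 was without the 4 libraries richest in atrial genes. Of 10 markers of resident fibroblasts 3 fell (Dpt by 0.58, Mfap5 by 0.57 and Medag by 0.51), with a median of -0.19, while Pdgfra was at -0.04, Dcn at -0.20 and Tcf21 at -0.25, none called. The summed CPM of the fibroblast list was 912 to 1510 with the vector and 885 to 1090 with the virus. In whole-tissue RNA, fewer cells of a type and less RNA per cell cannot be told apart. Without the 4 libraries richest in atrial genes the calls went from 6 to 3 of the fibrillar chains, from 7 to 3 of the crosslinking, matricellular and protease lists each, from 13 to 10 of all chains and from 3 to 0 of the fibroblast markers. The medians went from -0.42 to -0.26 for the chains, from -0.26 to -0.16 for the crosslinking enzymes and from -0.19 to -0.04 for the fibroblast markers, while Col3a1 was at -1.68, Col5a3 at -1.91, Col1a1 at -1.15 and Col4a1 at -1.03. With an atrial score as covariate the median of the chains was -0.15, and that of the matricellular genes went from -0.57 to -0.26 with 3 lower and 2 higher.

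**Figure D4:**
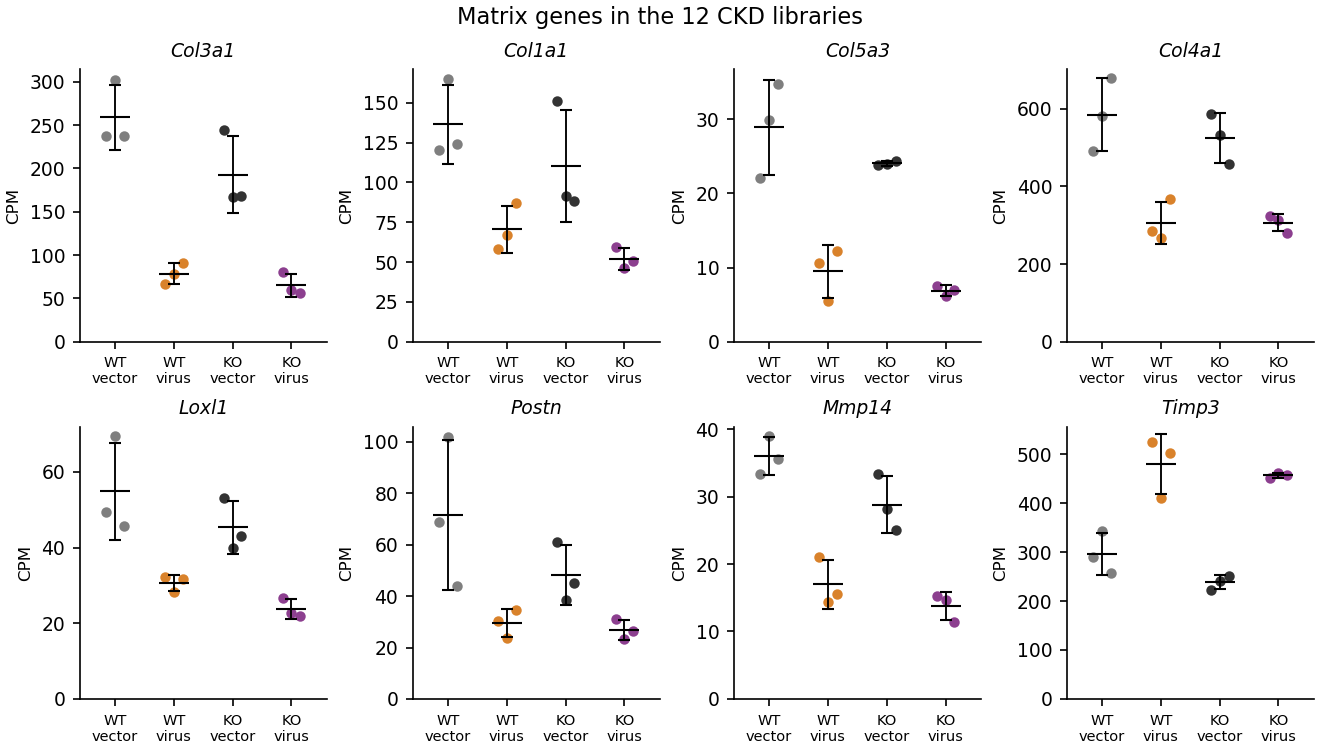
Level of 8 matrix genes (CPM, each panel with its own axis from 0) in the 12 CKD libraries by genotype (WT, KO) and injection, with 1 point a library, the group mean as a bar and ±1 SD (n = 3). Timp3 is higher and the other 7 lower with the virus in both genotypes, as with Col3a1 at 167 to 302 CPM without and 56.1 to 91.4 with it, and WTCKD spreads most at Postn.

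Heart muscle genes rose slightly or did not pass. Of 10 cardiomyocyte markers Ttn, the giant sarcomere spring, rose by 0.60 and Myh6, the α-myosin heavy chain, by 0.41, and the other 8, Tnnt2, Tnni3, Actc1, Ryr2, Pln, Myl2, Myl3 and Actn2, lay between -0.04 and 0.20 without a call. Ttn went from 3330, 3880 and 4850 CPM to 5590, 5920 and 7200. Of 30 sarcomere and Z-disc genes 5 rose, with Nebl (0.39), Myom2 (0.52) and the titin cap Tcap (0.56) beside these 2, and 2 fell, Myot by 0.59 and the atrial light chain Myl7. Over all genes tested 9.93% were called higher and 6.29% lower. Ttn, Nebl and Myh6 have long transcripts, and with gene length offsets 8 of the 30 were higher and 1 lower. Without the 4 libraries richest in atrial genes the median of the 30 went from 0.11 to 0.05. That of the 10 cardiomyocyte markers went from 0.09 to 0.03.

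The hypertrophy genes did not move as 1 group. Of 14 tested 3 rose and 3 fell, with a median of -0.09. Myh7, the β-myosin heavy chain of the fetal and stressed ventricle, was at 134, 285 and 887 CPM with the vector and 186, 842 and 2070 with the virus. The arms overlapped, KOCKD replicate 3 and KOCKD+RNLS replicate 2 being the highest of each, and the gene was called at 1.28 ± 0.40 (adjusted p = 0.0428) but in only 3 of the 12 fits that leave out 1 library. Reads shared between Myh6 and Myh7 may be split between them. Myh7b rose by 0.93 and Xirp1 by 0.22. Ankrd23, a titin-bound stretch sensor, fell 2.15-fold without overlap, from 670, 782 and 824 CPM to 285, 349 and 432 (-1.11 ± 0.09, adjusted p = 3.23e-06), Rcan1, a calcineurin inhibitor that calcineurin induces, by 0.78, and Gdf15 by 0.97. Nppb, which encodes B-type natriuretic peptide, was at 110, 176 and 262 CPM with the vector and 75.4, 138 and 178 with the virus (-0.41, adjusted p = 0.153). Nppa, also an atrial gene, was at -1.55 (adjusted p = 0.0645), Acta1 at 0.04 and Ankrd1 at 0.17.

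Of 24 channel and connexin genes 6 rose, 1 fell and 17 were not called, with a median of 0.06. Kcnj12, an inward-rectifier potassium channel, was at 30.4, 33.8 and 38.5 CPM with the vector and 39.9, 50.9 and 67.1 with the virus, a rise of 1.51-fold without overlap (adjusted p = 0.00149). The potassium channel genes Kcna4 (0.95), Kcnh2 (0.47) and Kcnj5 (0.40) rose too, and the sodium channel subunit Scn4b fell by 0.75. Of 19 calcium handling genes the L-type channel subunits Cacnb2 (0.45), Cacna1c (0.36) and Cacna2d1 (0.33) and the receptor Itpr2 (0.50) rose, the atrial Sln fell, and Atp2a2, Ryr2 and Pln were at -0.07, 0.20 and 0.08 without a call. With gene length offsets 4 channel genes were higher and 2 lower, and 2 calcium handling genes were called in each direction. Without WTCKD+RNLS replicate 3 only 3 channel genes were called higher. None of the 4 rises in the calcium list was called without the 4 libraries richest in atrial genes, whereas 5 genes of the channel list were called higher.

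Atp2b4, the reported receptor of renalase, was at 22.2, 27.4 and 34.9 CPM with the vector and 26.1, 33.9 and 38.0 with the virus (0.27 ± 0.11, adjusted p = 0.107). It was called within Rnls-/- (0.54, adjusted p = 0.00752) and not within wild type (adjusted p = 0.991), and the difference between the genotypes had an adjusted p of 0.134. Of 14 catecholamine genes the α1A receptor Adra1a and adenylyl cyclase Adcy6 rose by 0.55 and 0.39, and 3 genes fell, the α1B receptor Adra1b by 0.53 and the receptor kinase Grk5 by 0.45 among them. The β1 receptor Adrb1 (0.10) and the monoamine oxidases Maoa (-0.24) and Maob (-0.09) were not called. Of 9 renin-angiotensin genes the receptor Agtr1a rose by 0.37, 3 genes fell, the mast cell chymase Cma1 by 2.12 and Atp6ap2 by 0.25 among them, and Ace and Agt were not called. With KOCKD+RNLS replicate 2 left out no gene of this list was called lower by edgeR, with KOCKD replicate 3 left out 1 was, and nothing in it was called without the 4 libraries richest in atrial genes.

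Antigen-presenting and macrophage genes were lower. Of 9 MHC class II genes 5 fell, none was above 0 and the median was -0.74. H2-Aa was at 48.1, 63.7 and 80.8 CPM with the vector and 17.7, 33.3 and 46.2 with the virus (-0.94 ± 0.17, adjusted p = 0.00222). Cd74, the invariant chain, fell 1.67-fold from 133 to 198 CPM down to 65.7 to 122, and H2-Ab1, H2-Eb1 and H2-DMb1 by 0.84, 0.86 and 0.92. The activator Ciita of this class was near 0 (adjusted p = 0.996). Of 15 class I genes 4 fell, B2m by 0.57, H2-D1 by 0.43, Psmb9 by 0.37 and Tapbp by 0.19, and reads of the similar H2 class I genes may be split among them. Of 17 macrophage markers 5 fell (Cx3cr1 by 1.17, Ms4a7 by 0.94, Adgre1 by 0.66, Lyz2 by 0.56 and C1qa by 0.39), with a median of -0.28 and a summed CPM of 458 to 717 with the vector and 373 to 551 with the virus. Of 35 interferon-responsive genes only Oas2 (0.57) and Bst2 (-0.53) were called, and of the lymphocyte markers Cd4, Cd79a, Cd79b and Ptprc none was. Without the 4 libraries richest in atrial genes edgeR called 0 of the class II and class I genes and 2 of the macrophage markers, with medians of -0.65, -0.14 and -0.18.

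Proliferation, nerve sheath and endothelial genes fell as well. Of 20 cell cycle genes 6 fell (Top2a by 1.78, Cdk1 by 1.47, Ccna2 by 1.45, Ccnb2 by 1.40, Mki67 by 1.35 and Mcm3 by 0.44), with a median of -0.35, which was -0.59 in wild type with 3 calls and -0.15 in Rnls-/- with 1. Of the 20, 2 were called without the 4 libraries richest in atrial genes, with a median of -0.18. Mki67, which marks dividing cells, was at 5.74, 6.92 and 10.7 CPM with the vector and 1.07, 3.02 and 4.67 with the virus, without overlap. Cdkn1a, the p21 inhibitor of the same kinases, fell by 1.5. Of 5 Schwann cell markers 4 fell, Mbp by 1.66 and Sox10 by 1.51 among them, while Cdh19 was at 0.42 (adjusted p = 0.163). Their summed CPM was 12.7 to 28.5 with the vector and 8.87 to 17.4 with the virus, with the highest value in WTCKD replicate 2, a library rich in atrial genes, and without the 4 such libraries 1 of the 5 was called. Of 15 endothelial markers 9 fell and 1 rose, with a median of -0.28. Beside Cldn5, the apelin receptor Aplnr fell 2.15-fold (49.9, 62.2 and 71.2 CPM to 19.3, 26.0 and 49.3), and Emcn, Pecam1, Kdr, Esam, Cdh5, Egfl7 and Tie1 by 0.43 to 0.21. Flt1, a decoy for VEGF, rose by 0.49. The summed CPM of these markers was 1830 to 2310 with the vector and 1660 to 1950 with the virus, and without the 4 libraries richest in atrial genes 5 were lower (median -0.31). The potassium channel subunit Abcc9, listed with pericytes and also used by heart muscle, rose by 0.55, and the other 9 mural cell markers were not called.

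**Figure D5:**
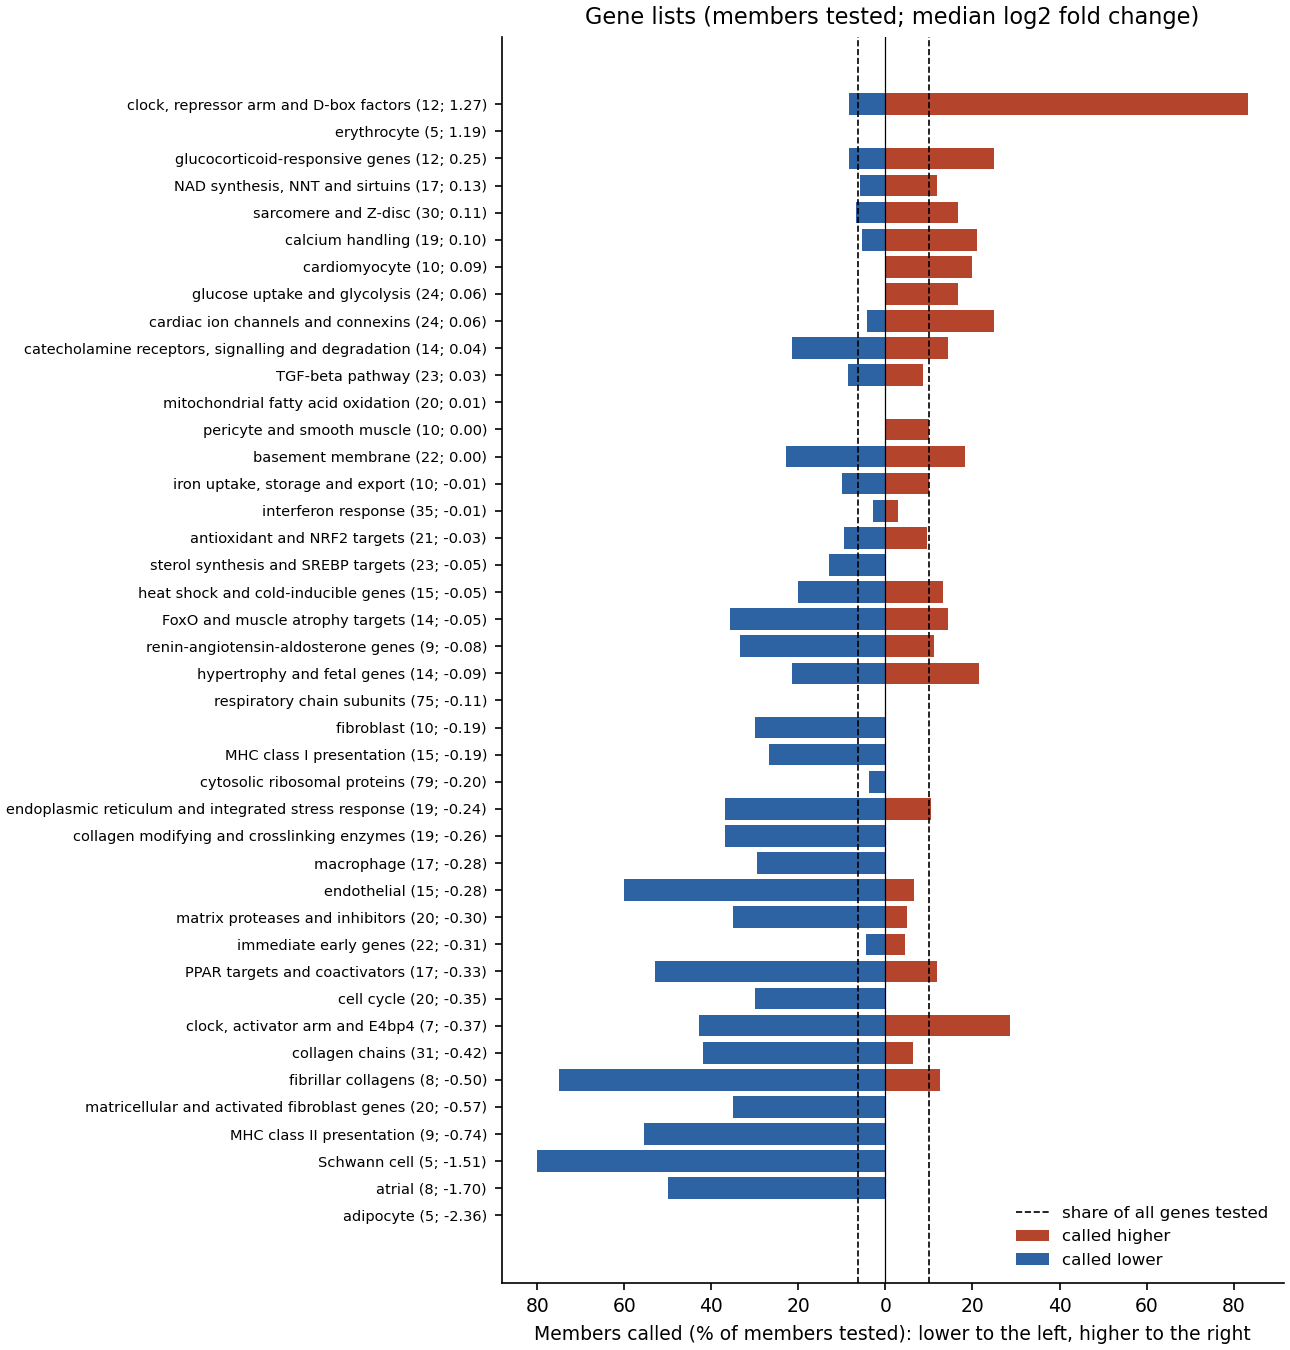
Share of the tested members of each gene list that edgeR called lower (blue, to the left) and higher (red, to the right) with the virus, in percent, ordered by median log2 fold change, with members tested and that median after each name. Dashed lines mark the shares over all genes, 9.93% higher and 6.29% lower. The clock repressor arm with its D-box factors stands far to the right, with 10 of 12 higher. The Schwann cell, fibrillar collagen, endothelial, MHC class II and PPAR lists stand to the left.

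Mitochondrial and ribosomal genes had different median virus effects in the 2 genotypes as labelled. Of 75 respiratory chain genes 0 were called by edgeR over both genotypes and 2 by DESeq2 (1 in each direction), with 5 at an unadjusted p under 0.05, with a median of -0.11, but the medians were 0.12 in wild type and -0.34 in Rnls-/-, where 37 were called. For 64 of the 75 the difference between genotypes had an unadjusted p under 0.05, while none passed after adjustment over all genes. Of 79 cytosolic ribosomal protein genes 3 were called, all lower (Rpl39, Rps21 and Rps23), and 14 by DESeq2, with medians of 0.01 in wild type and -0.42 in Rnls-/-, where 60 were called. The summed CPM of ribosomal genes was 17100 to 18500 in WTCKD, 15900 to 21600 in WTCKD+RNLS, 18000 to 20400 in KOCKD and 14900 to 15200 in KOCKD+RNLS. WTCKD+RNLS replicate 2 was the highest of its group in both lists, and KOCKD replicate 2 in the respiratory list, with KOCKD replicate 3 at the same 20400 in the ribosomal one. Without WTCKD+RNLS replicate 2 alone, 38 respiratory chain and 73 ribosomal genes were called over both genotypes, all lower. Without KOCKD replicate 2 alone edgeR called 0 of either list, and without both libraries, an alternative chosen after the data were seen, 19 and 66. These transcripts are short, and with gene length offsets the medians over both genotypes came to 0.03 and -0.07. The part of length in this difference was not tested further.

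The lowest p for a difference between genotypes belonged to 4 genes, at an adjusted p of 0.0863 each. Ubxn10, a cilium-related UBX protein, was at 8.73, 9.64 and 10.7 CPM in WTCKD and 2.64, 3.83 and 3.49 in WTCKD+RNLS, against 11.5, 5.19 and 7.49 in KOCKD and 18.3, 10.9 and 12.3 in KOCKD+RNLS, a fall in wild type (-1.55) beside a rise in Rnls-/- (0.78). Hsd17b7, a sterol synthesis enzyme, did the same at -0.84 and 0.56, and Tmem100, an endothelial membrane protein, the reverse at 0.57 and -0.44. Smarca2, a chromatin remodelling ATPase, was at -0.01 in wild type and 0.64 in Rnls-/-. None of the 4 differences passed the adjusted test in edgeR.

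Pooling both genotypes brought out genes that neither reached alone. The 563 such genes (269 higher, 294 lower) had a median absolute change of 0.373. The lowest p among them belonged to Gnai1, an inhibitory G protein subunit, at 3.61, 5.27 and 7.25 CPM with the vector and 2.52, 2.90 and 3.86 with the virus (-0.82 ± 0.18, adjusted p = 0.00572), with -0.88 in wild type and -0.76 in Rnls-/-, each short of the test. Sox10, the Schwann cell factor, Clec11a, a secreted growth factor, and Ccna2, cyclin A2, fell by 1.51, 1.34 and 1.45. Tlcd3b, a ceramide synthase, and Mapk12, the p38γ kinase of muscle, rose by 0.57 and 0.37. All 6 were called in each of the 12 fits that leave out 1 library, and Mapk12 was the only one called without the 4 libraries richest in atrial genes (0.49, adjusted p = 0.0209).

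The genotype term called 10 genes, with 1116 at an unadjusted p under 0.05. Dropping the block altogether gave 2010 called genes, 1957 of them called with it, and leaving out KOCKD+RNLS replicate 1, the library with wild-type Wdfy1 levels, gave 1593.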

How the data were processed

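Heart mRNA was sequenced from 15 mice (TruSeq stranded mRNA kit), of which the 12 with CKD were analysed. The study's methods name alternative sequencers and read lengths without assigning them to libraries. A difference of run between the arms was therefore not tested. As deposited, the counts are whole reads per gene and library, for which the authors trimmed reads with Trimmomatic, aligned them with hisat2 and counted them with htseq-count. The deposited FPKM values came from cufflinks per the study's methods and were used here only to derive gene lengths. Versions, annotation and the strand option are not given in the sources used here, so reads of overlapping or near-identical genes may be split between them. The methods name mm9 and the submitters' processing notes GRCm39, so no coordinates were taken from the files.

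Counts were fitted in edgeR 4.0.16 (R 4.3.3) with TMM scaling (factors 0.92 to 1.04), the quasi-likelihood test and Benjamini-Hochberg adjustment over all 12896 genes with 10 or more counts in 3 or more libraries (16924 had any count), with genotype and treatment as terms. Effects within each genotype and their difference came from 1 model with an interaction. CPM are on TMM-scaled totals of the counted reads. The common biological coefficient of variation was 0.131. DESeq2 1.42.0, other scalings and filters, length offsets, an atrial covariate and leaving out libraries were alternatives. The code was checked on simulated counts.

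Named genes were the 12 largest rises and 12 largest falls among genes called without overlap, of 1 sign in both genotypes and with a mean log2 CPM over 1, then up to 4 genes of lowest p in each list, the 4 of lowest p for the difference between genotypes, the 6 of lowest p among those called in neither genotype alone, and Col1a1, Col1a2, Col3a1, Col4a1, Col4a2, Nppb, Myh7, Acta2 and Atp2b4. Other list genes were named for their calls, or as known members, after their values were seen, and a few list members that count in the totals are not reported here by name. The members and all gene lists were chosen with earlier results of these data known. The labels give a group and a number, and each library was taken as a separate animal. No pair of libraries of a group agreed within sampling noise.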

Additional observations from a re-analysis of the deposited data

How the results depend on the processing

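The count of called genes stayed within 1.5 times of 2091 with RLE size factors (2050), no filter (1992), edgeR's own filter (2086), DESeq2 (2409), all 15 libraries (1996), length offsets (1729), the mean of the within-genotype effects (2540), and, added after the data were seen, without the genotype block (2010) or without WTCKD+RNLS replicate 2 and KOCKD replicate 2 (2886, with 1228 lower against 811). It moved further with an atrial score as covariate (1322, 465 of them lower) and, also added later, without the 4 libraries richest in atrial genes (463, 270 higher and 193 lower). Leaving out 1 library at a time gave 1359 to 3447 called genes, 799 to 1880 higher and 548 to 1567 lower. The fewest calls came without WTCKD+RNLS replicate 3 and the most without WTCKD+RNLS replicate 2. The cause of these shifts was not tested, beyond the smaller number of libraries.

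Genes that differed between genotypes numbered 0 in the edgeR fit, 24 without a filter, 71 with the atrial covariate, 476 in DESeq2 and 0 to 113 when 1 library was left out, the highest without WTCKD+RNLS replicate 3. For this difference DESeq2 gave no adjusted p to 6001 genes. Of 149 named genes that were called, 118 were called in each fit that left out 1 library. The sign turned for Stard10, an atrial marker, at 0.03 without the 4 libraries richest in atrial genes. Acta2, not called, ran from -0.28 to 0 when 1 library was left out.

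Same-numbered replicates did not deviate together (r from -0.298 to -0.0381 in wild type and 0.0201 to 0.0858 in Rnls-/-), so the numbers were not taken as pairs, and a fit with the replicate number as a block called 1759 genes, 1098 higher and 661 lower. With 3 libraries a group and 10480788 to 13424078 counts each, genes of a few counts carry wide errors, and a missing call says little about them.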

Other observations

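Stress genes moved in both directions with the virus. Of 19 genes of the endoplasmic reticulum and integrated stress response 7 fell and 2 rose (median -0.24). Asns, which makes asparagine, fell by 0.90 (edgeR, adjusted p = 0.00107), Sdf2l1 by 0.71, Chac1 by 0.55 and the chaperones and isomerases Pdia4, Calr, Pdia6 and Hsp90b1 by 0.27 to 0.24, while Herpud1, of the degradation machinery, rose by 0.57 and the oxidase Ero1a by 0.37. Without the 4 libraries richest in atrial genes 1 of the 19 was called. Of 15 heat shock and cold-inducible genes Hspb1, Hsp90aa1 and Hspa8 fell by 0.49, 0.42 and 0.32, and Dnajb1 and the cold-inducible Cirbp rose by 0.48 and 0.38. The fit over all 15 libraries called 0 genes of this list lower and 1 higher. Among 14 FoxO and atrophy genes the ubiquitin ligase Trim63 fell by 0.39 with Gabarapl1, Ctsl, Bnip3 and Cited2, and Foxo3 itself rose by 0.60 with Ulk1 at 0.32. These 5 falls were 2 when WTCKD replicate 1 or any 1 KOCKD+RNLS replicate was left out. Of 22 immediate early genes Ier3 rose by 0.95 and Myc fell by 1.03, and the others, Fos and Egr1 included, were not called. Calls in this list came below the 16.2% share over all genes tested.

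Of 12 glucocorticoid-responsive genes Lcn2 (1.59), Zbtb16 (0.94) and Tsc22d3 (0.59) rose and Cdkn1a fell. Of 21 antioxidant genes the glutathione transferase Gsta3 rose by 1.16 and the regulator Nfe2l2 by 0.19, and the secreted enzymes Gpx3 and Sod3 fell by 1.03 and 0.54. In NAD synthesis Nampt rose by 0.37 and the muscle kinase gene Nmrk2 fell by 1.20, with Parp1 at 0.19 the third call among 17 genes. Calls in the antioxidant and NAD lists, and in the sterol and iron lists below, were near the 16.2% share over all genes tested. Of 23 sterol genes 3 fell, Sqle and, by 0.35, Stard4 among them, a count that was 1 when WTCKD replicate 1 or 2, WTCKD+RNLS replicate 3 or KOCKD replicate 1 was left out and 0 without KOCKD+RNLS replicate 1, with the atrial covariate or without the 4 libraries richest in atrial genes, and of 10 iron genes the exporter Slc40a1 fell by 0.49 and the importer Slc39a14 rose by 0.31.

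Among markers of other cells, edgeR and DESeq2 called no erythrocyte, adipocyte, skeletal muscle or mesothelial gene over both genotypes with all 12 libraries. The 5 erythrocyte genes had a median of 1.19 over both genotypes, 2.72 in wild type, where all 5 were called, and -0.16 in Rnls-/-, with a summed CPM of 37.8 to 107 in WTCKD and 215 to 521 in WTCKD+RNLS, and 2 had an unadjusted p under 0.05, and without KOCKD replicate 3 all 5 were called higher. The 5 adipocyte genes had a median of -2.36, 4 with an unadjusted p under 0.05, and a summed CPM of 15.5 to 36.1 with the vector and 12.8 to 24.3 with the virus. Of these 3 were called lower without WTCKD replicate 3, and 4 without KOCKD replicate 2 or without KOCKD+RNLS replicate 1. Of 3 skeletal muscle and 2 mesothelial genes 0 were called in either tool over both genotypes, 1 had an unadjusted p under 0.05 and 1 skeletal muscle gene was called in wild type.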
